A study of Homo sapiens with 32 samples.

Results

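The transcriptome of HGrC1 cells exposed to 1 µM PFOS for 12 weeks was compared with that of vehicle controls cultured for the same time. The comparison holds the 4 libraries whose labels give 1 µM PFOS and 12 weeks and the 4 whose labels give control and 12 weeks, 8 of the 32 libraries of the series, and it is described over all 12742 genes that passed edgeR's filter on low counts. HGrC1 cells are human granulosa cells that were immortalized without having luteinized. PFOS (perfluorooctane sulfonate) is a persistent surfactant of the perfluoroalkyl family. Both groups came from the same 4 frozen vials of this 1 line, each thawed into its own flask and then divided among the groups. Control cells received 0.05% DMSO, exposed cells received PFOS with each passage, and all cells were kept in medium with 10% fetal bovine serum. Both groups also received a hormone at 100 nM. The sample labels name it as estradiol and the methods text as testosterone. All RNA came from 1 cell line in culture, so a lower level per cell and fewer expressing cells cannot be told apart.

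Granulosa cells surround the oocyte, nourish it, and convert androgens from theca cells into estradiol with aromatase. In culture, their expression of many signaling genes follows serum, gonadotropins and stress within minutes to hours. Immediate early genes such as the FOS, EGR and NR4A families are switched on by MAP kinase and cAMP signaling without new protein synthesis, and several of them in turn drive feedback inhibitors such as Sprouty proteins and dual-specificity phosphatases. The aryl hydrocarbon receptor (AHR) is a ligand-activated transcription factor that pairs with ARNT, binds a short core sequence in DNA and drives CYP1A1, CYP1B1 and TIPARP, the last of which feeds back on the receptor.

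The total count per library lay between 18216349 and 18553350 in the controls and between 18158519 and 18270674 in the exposed cells, so depth differed little. No pair of libraries within a group agreed within sampling noise (chi-square per degree of freedom between 2.73 and 9.81). Replicates 1 and 2 and replicates 3 and 4 were the closest pairs, with 4.84 and 4.49 in controls and 2.73 and 3.01 in exposed cells. All other pairs had 7.59 to 9.81. The test between the groups held no term for this split. The first principal component of the 8 libraries, over 10057 genes, held 37.4% of the variance and did not separate the groups. It placed control replicates 3 and 4 (score −0.48 in both) and exposed replicates 1 and 2 (−0.19 and −0.18) on one side and control replicates 1 and 2 (0.25 and 0.27) and exposed replicates 3 and 4 (0.38 and 0.44) on the other. The second component held 21.2% and separated controls from exposed libraries. Control replicate 3 also stood apart in 6 liver transcripts (AFP, AHSG, ALB, APOB, GPC3 and AMBP), with a summed count of 919 against 81, 115 and 88 in the other controls and 92 to 174 in the exposed libraries. No source of these transcripts was tested.

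Genes listed for granulosa identity included KRT18, an intermediate filament protein, GATA4, a gonadal transcription factor, and NR2F2, an orphan nuclear receptor. All of these were expressed in every library. Their TPM (transcript levels corrected for length) was 2469 ± 116, 65.8 ± 5.22 and 55.0 ± 8.13 in controls (SD, n = 4). FOXL2, the transcription factor that maintains granulosa identity, was near the limit of detection at 0.535 ± 0.135 TPM. Transcripts of aromatase (CYP19A1), of the AMH receptor (AMHR2) and of NR5A1 were at or near 0, with 0 to 1, 0 to 1 and 0 to 2 counts per control library. Of the listed genes, GATA4, KRT18 and NR2F2 were clearly expressed, but whether these are particular to granulosa cells was not tested. FOXL2, AMHR2, NR5A1 and the hormone-converting enzyme were at or near the limit of detection. The receptor FSHR did not pass the filter on low counts, and INHA and INHBA did. These levels alone do not establish the labelled cell type. For markers of other cells, exact permutation of the summed counts gave two-sided p between 0.4 and 0.971 (n = 4 against 4). The sums were 345 to 544 and 310 to 468 counts in control and exposed libraries for 11 immune markers, with CD3E at 0 throughout. They were 111 to 195 and 138 to 186 counts for 7 endothelial markers, 172 to 222 and 164 to 199 for 4 theca markers, 416 to 530 and 440 to 488 for 6 oocyte and germ cell markers, with DDX4 and DAZL at 0, and 10 to 19 and 13 to 15 for 7 erythroid markers.

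At 12 weeks, 28 genes differed between 1 µM PFOS and control (edgeR's quasi-likelihood test, adjusted p at or under 0.05), 17 of them lower and 11 higher in the exposed cells. These are 0.22% of the genes tested, 0.133% for the lower and 0.0863% for the higher genes. The lower genes held AHR targets (TIPARP and CYP1B1), stress and early response regulators (MAFF, ATF3, CSRNP1, KLF9 and PPP1R15A), signaling genes (SPRY2, PDE4D, F2RL3 and VEGFA) and the keratin KRT17. The higher genes held factors linked to RNA (LENG8, CCNL2 and ADARB1) and to autophagy (ATG16L2), with the metalloprotease ADAM33. The differences were small, with absolute log2 fold changes from 0.21 to 1.31, and only PDE4D and F2RL3, both lower, reached the 2-fold change that defines a differentially expressed gene (DEG) in the study, 0.0157% of the genes tested. In all 28 genes the ranges of the exposed and control libraries were apart. With the replicate number as a block the numbers were 45 genes and 4 DEGs, the other two being CYP1A1 and NR4A3, but no label states outright that a number is the same vial in both groups, and same-numbered libraries did not deviate together.

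**Figure D1:**
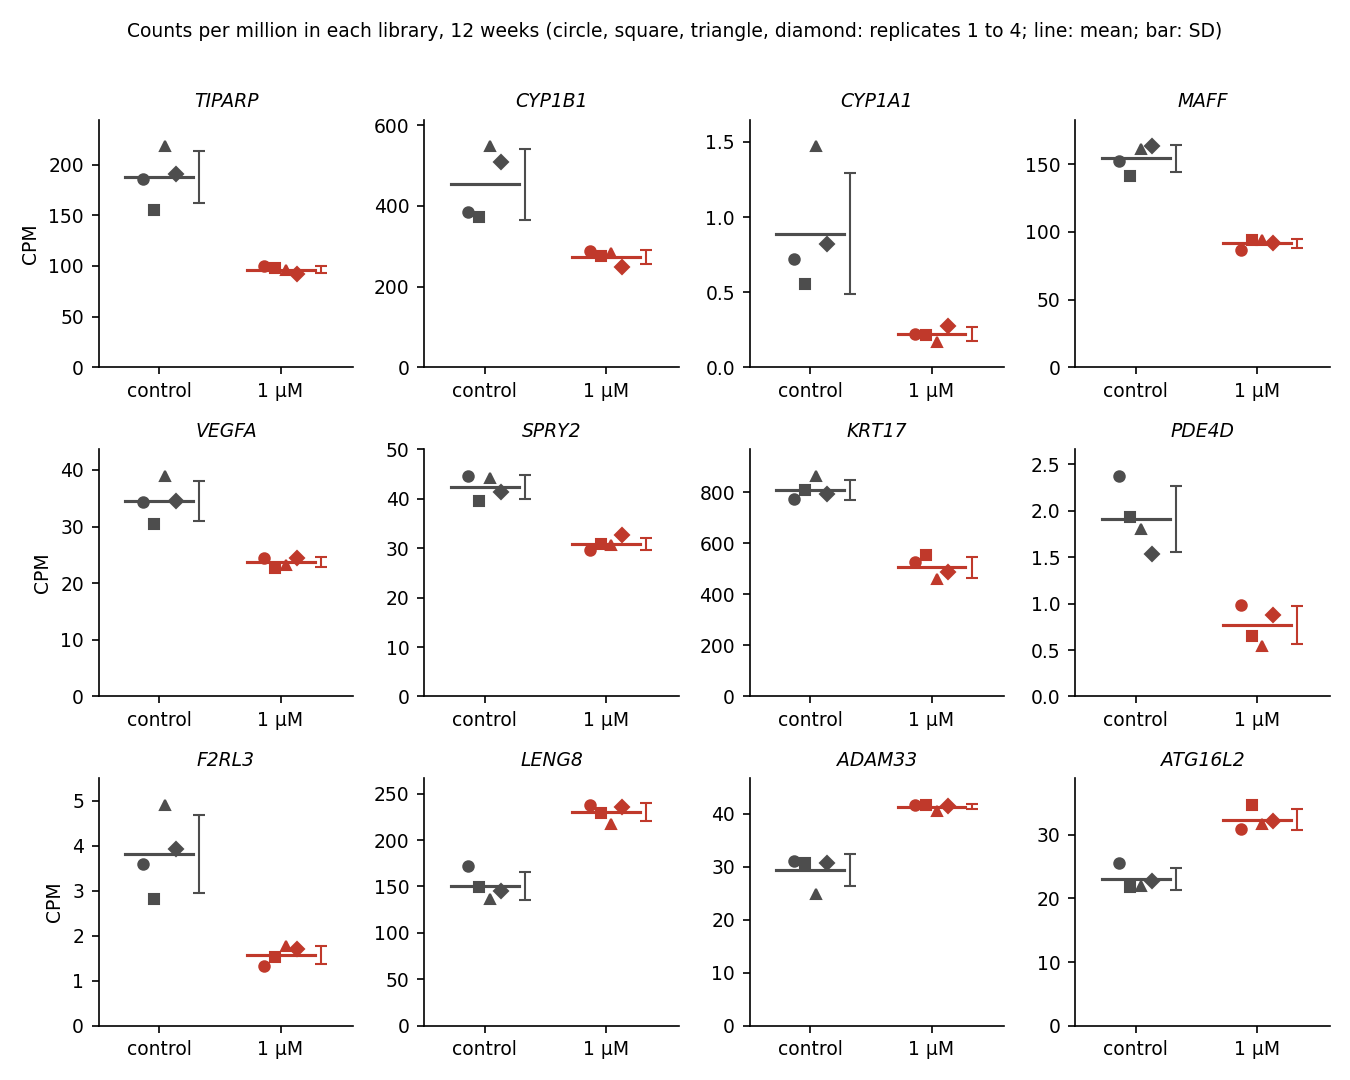
Counts scaled by TMM (CPM) of 12 genes in each library at 12 weeks (grey, control; red, 1 µM PFOS; marker shapes, replicates; line, mean; bar, SD; axes start at 0). In each panel the 4 exposed libraries lie entirely below the controls, or above them for LENG8, ADAM33 and ATG16L2.

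TIPARP encodes a mono-ADP-ribosyltransferase that represses the AHR. Levels are in CPM, counts scaled to the size of each library. TIPARP lies on chromosome 3 (156674590 to 156706770, plus strand, GRCh38.p14) and had 186, 155, 218 and 191 CPM in control replicates 1 to 4 and 99.7, 97.6, 95.8 and 91.6 CPM in exposed replicates 1 to 4. The lowest control was far above the highest exposed library, and the exposed libraries lay close together. TIPARP fell by 0.97 ± 0.11 on the log2 scale (SE, n = 4 against 4, edgeR adjusted p = 0.000338). CYP1B1, an AHR-driven cytochrome P450 that hydroxylates estradiol (chromosome 2, 38067509 to 38076151, minus strand), had 385, 372, 547 and 509 CPM in controls and 288, 276, 283 and 248 CPM in exposed cells. Control replicates 3 and 4 were the high ones, and the groups did not overlap. The log2 fold change was −0.73 ± 0.11 (edgeR adjusted p = 0.00747). CYP1A1, the archetypal AHR target (chromosome 15, 74719542 to 74725528, minus strand), was at the edge of detection, with 13, 10, 27 and 15 counts in controls and 4, 4, 3 and 5 counts in exposed cells. Every exposed library was below every control. Its ratio of summed counts, 16 against 65, was 0.248 (exact 95% interval 0.134 to 0.434, counting error only), and the fitted log2 fold change of −2.0 ± 0.45 did not pass (edgeR adjusted p = 0.0635, and 0.0382 with the replicate block).

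The stretches upstream of TIPARP and CYP1A1 are shown because both are driven by the AHR, whose core motif GCGTG is in capitals on either strand. They are the 250 bases before the RefSeq transcription start on GRCh38.p14, 5′ to 3′ in the gene's direction, at chr3:156674340-156674589 (+ strand) and chr15:74725529-74725778 (- strand).
TIPARP: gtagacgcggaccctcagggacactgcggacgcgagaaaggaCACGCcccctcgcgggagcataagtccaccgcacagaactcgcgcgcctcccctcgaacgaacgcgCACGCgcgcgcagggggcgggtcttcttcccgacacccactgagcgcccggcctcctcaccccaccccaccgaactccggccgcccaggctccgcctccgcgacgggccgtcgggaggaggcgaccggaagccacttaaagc
CYP1A1: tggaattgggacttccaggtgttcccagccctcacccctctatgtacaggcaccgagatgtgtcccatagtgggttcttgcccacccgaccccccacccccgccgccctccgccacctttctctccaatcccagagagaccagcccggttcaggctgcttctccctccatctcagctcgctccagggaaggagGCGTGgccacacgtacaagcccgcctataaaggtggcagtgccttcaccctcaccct
The motif began 208 and 142 bases before the start of TIPARP and 57 bases before that of CYP1A1. The same letters were in 31.9% of the 27305 promoters of the table and in 45.7% of those of the genes tested, so a match is common. Of the 28 genes, 21 had a promoter in the table, and 8 of these held the motif: ADARB1, LENG8, EME2, PPP1R15A, TIPARP, AVPI1, CCNL2 and F2RL3.

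Over the whole list of AHR genes, 14 of 16 members were tested, of which 2 (TIPARP and CYP1B1) fell, 0 rose, and 11 had a log2 fold change below 0. The background share below 0 was 51.7% of all genes. The median of the list was −0.15 and that of all genes −0.004. An unadjusted p under 0.05 was reached by 5 members, all lower, where 4.33% of all genes reached it as lower and 4.42% as higher. Besides the 3 genes above these were SERPINB2, an inhibitor of plasminogen activators (−0.99 ± 0.35, edgeR adjusted p = 0.435), and NFE2L2, the oxidative stress regulator NRF2 (−0.18 ± 0.05, edgeR adjusted p = 0.167). The receptor itself and its partner differed little. AHR had a log2 fold change of −0.15 ± 0.08 and ARNT of 0.05 ± 0.05, and the AHR repressor AHRR, another target, had 0.13 ± 0.12 (edgeR adjusted p = 0.637, 0.774 and 0.772). The NRF2 target NQO1 was at −0.07 ± 0.06, and of 23 NRF2 targets tested none passed the adjusted p and 1 passed the unadjusted one. The shares of 4.33% for lower and 4.42% for higher genes are the background for the unadjusted counts of every list below.

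MAFF, a small MAF protein that partners NRF2 and BACH factors (chromosome 22, 38201994 to 38216511, plus strand), had 152, 141, 161 and 163 CPM in controls and 86.6, 93.8, 93.6 and 91.4 CPM in exposed cells. Its spread within each group was far smaller than the gap between them. The log2 fold change was −0.76 ± 0.07 (edgeR adjusted p = 9.49e-06), the smallest p in the comparison. ATF3, a stress-induced bZIP repressor, had 369, 329, 412 and 396 CPM in controls and 288, 278, 230 and 272 CPM in exposed cells (−0.50 ± 0.09, edgeR adjusted p = 0.0308). CSRNP1, a nuclear protein induced by AXIN1, fell by 0.52 ± 0.08 on the log2 scale (edgeR adjusted p = 0.00223), from 343 to 396 CPM in controls to 241 to 270 CPM. KLF9, a Krüppel-like factor that responds to glucocorticoid and thyroid hormone, fell by 0.43 ± 0.09 (edgeR adjusted p = 0.0425). The ranges of all these genes were apart, with ATF3 and KLF9 the closest. PPP1R15A, the phosphatase subunit GADD34 that restores translation after stress, fell by 0.41 ± 0.07 (edgeR adjusted p = 0.0115), and HERPUD1, a component of degradation at the endoplasmic reticulum, by 0.24 ± 0.05 (edgeR adjusted p = 0.0425). EIF1, a translation start factor, fell by 0.23 ± 0.05 (edgeR adjusted p = 0.041), from 591 to 653 CPM to 527 to 558 CPM. AVPI1, a vasopressin-induced gene, fell by 0.39 ± 0.07 (edgeR adjusted p = 0.0134), FBXO33, an F-box protein, by 0.39 ± 0.07 (edgeR adjusted p = 0.0115), and SLC25A25, a calcium-regulated mitochondrial carrier of ATP, by 0.27 ± 0.05 (edgeR adjusted p = 0.0321).

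The palindrome TGACGTCA, known as the cAMP response element and bound by CREB and ATF proteins, stood in the 250 bases upstream of 5 of the 21 genes with a promoter, 4 that were lower and 1 that was higher. It was in 1.77% of all promoters of the table and in 2.93% of those of the genes tested. These 5 stretches of 60 bases are shown because they carry this full motif, which is in capitals, all 5′ to 3′ in the gene's direction from RefSeq on GRCh38.p14. The first 4 belong to genes that fell and the last to one that rose.
MAFF, chr22:38201914-38201973 (+ strand): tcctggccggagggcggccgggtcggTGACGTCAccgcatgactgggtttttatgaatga
PPP1R15A, chr19:48872337-48872396 (+ strand): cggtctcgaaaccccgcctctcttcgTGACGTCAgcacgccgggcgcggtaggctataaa
AVPI1, chr10:97687432-97687491 (- strand): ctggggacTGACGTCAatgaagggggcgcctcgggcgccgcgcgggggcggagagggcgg
SLC25A25, chr9:128098281-128098340 (+ strand): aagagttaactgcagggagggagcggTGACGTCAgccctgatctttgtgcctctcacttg
LENG8, chr19:54449139-54449198 (+ strand): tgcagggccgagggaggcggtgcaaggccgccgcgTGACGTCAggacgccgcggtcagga
The motif began 54, 58, 242, 200 and 25 bases before the start of MAFF, PPP1R15A, AVPI1, SLC25A25 and LENG8, and in LENG8 it overlapped a GCGTG. The AP-1 site, TGANTCA, was in the stretch of PDE4D alone, 1 of the 21 genes. It was in 6.6% of all promoters and 3.73% of those of the genes tested. The PDE4D stretch, chr5:60496287-60496536 (- strand), precedes a transcription start that lies inside the span of the gene given below. The motifs were chosen after the genes were known, and a match of letters does not show binding.

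Across 31 tested members of the immediate early list, 29 had a log2 fold change below 0, and the median was −0.26. Only ATF3 fell, whereas 16 members, all lower, had an unadjusted p under 0.05, and in 11 the exposed libraries lay wholly below the controls (background 3.34% of all genes for lower and 3.26% for higher). With counts scaled by library total alone, 571 genes lay wholly above and 300 wholly below the controls in place of 416 and 426. NR4A3, an orphan receptor of the NR4A family, was the furthest, with 85.7, 64.6, 78.0 and 68.3 CPM in controls and 30.3, 33.4, 29.4 and 20.6 CPM in exposed cells. All exposed libraries lay far below the lowest control. The log2 fold change of −1.39 ± 0.29 did not pass, however (edgeR adjusted p = 0.105, 0.0224 with the replicate block). Its relatives NR4A2 (−0.63 ± 0.20) and NR4A1 (−0.43 ± 0.21) were also lower in every exposed library, with edgeR adjusted p of 0.354 and 0.598. KLF4 (−0.60 ± 0.18), JUNB (−0.38 ± 0.14) and MYC (−0.26 ± 0.06) did not overlap either. FOS (−0.02 ± 0.18) and EGR1 (−0.24 ± 0.23), the best known members, overlapped. FOS had 480 to 860 CPM in controls and 610 to 696 CPM in exposed cells. IER3, an early response gene that modulates apoptosis, was high in control replicates 3 and 4 (269 and 238 CPM) and 149 and 153 CPM in control replicates 1 and 2, against 121 to 137 CPM in exposed cells (−0.64 ± 0.16, edgeR adjusted p = 0.175).

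Among feedback inhibitors of MAP kinase signaling, 1 of 23 tested genes fell. SPRY2, a Sprouty protein that restrains receptor tyrosine kinases, had 44.7, 39.5, 44.2 and 41.3 CPM in controls and 29.7, 30.8, 30.7 and 32.6 CPM in exposed cells. The groups were clearly apart. SPRY2 fell by 0.46 ± 0.06 on the log2 scale (edgeR adjusted p = 0.000338). SPRY2 was the gene of the list that passed, 19 members were below 0, and the median was −0.19. An unadjusted p under 0.05 was reached by 8 lower and 1 higher members (background 4.33% and 4.42% of all genes). Among them were ERRFI1, an inhibitor of the EGF receptor (−0.22 ± 0.05), the phosphatase DUSP4 (−0.40 ± 0.12), and PHLDA1, a pleckstrin-like protein induced by growth factors (−0.42 ± 0.13), with edgeR adjusted p of 0.1, 0.261 and 0.317. Only the ranges of SPRY2 and ERRFI1 were apart in this list.

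PDE4D and F2RL3 changed most among the genes that passed. PDE4D, a phosphodiesterase that breaks down cAMP (chromosome 5, 58969038 to 60522128, minus strand), had 2.38, 1.93, 1.80 and 1.53 CPM in controls and 0.989, 0.65, 0.549 and 0.883 CPM in exposed cells. These are 28 to 43 counts against 10 to 18, some of them estimated fractions of reads. PDE4D fell by 1.31 ± 0.26 (edgeR adjusted p = 0.0308). Its ratio of summed counts was 0.406 (exact 95% interval 0.292 to 0.558, counting error only, without the spread between libraries). F2RL3, the thrombin receptor PAR4 (chromosome 19, 16888999 to 16892606, plus strand), had 65, 51, 90 and 72 counts in controls and 24, 28, 32 and 31 in exposed cells. It fell by 1.28 ± 0.23 (edgeR adjusted p = 0.0134), with a ratio of summed counts of 0.417 (0.333 to 0.52, also counting error only). Both calls were made on few counts. PDE4D passed in 2 of the 8 fits that each left out 1 library and F2RL3 in 5 of 8.

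No relative of either gene passed the test. The receptor F2R (PAR1), at 45.7 ± 4.81 TPM in controls against 1.83 ± 0.396 TPM for F2RL3 (SD, n = 4), had a log2 fold change of 0.23 ± 0.08 (edgeR adjusted p = 0.373), and F2RL2 of 0.38 ± 0.28 (edgeR adjusted p = 0.715). In the list of thrombin receptors and plasminogen activation, 1 of 18 tested genes passed, and the plasminogen activators PLAT and PLAU were at 0.05 ± 0.08 and −0.16 ± 0.09 (edgeR adjusted p = 0.891 and 0.611). Among phosphodiesterases, PDE4A was at 0.15 ± 0.08, PDE4B at −0.38 ± 0.29, PDE8A at 0.18 ± 0.07 and PDE7B at −0.63 ± 0.19 (edgeR adjusted p = 0.61, 0.721, 0.448 and 0.246). PDE4A was the more abundant subtype, at 6.46 ± 0.414 TPM against 0.34 ± 0.0589 TPM for PDE4D in controls. RGS2, which limits signaling of Gq-coupled receptors, had 17.8 to 22.5 CPM in controls and 9.44 to 13.8 CPM in exposed cells, without overlap (−0.75 ± 0.20, edgeR adjusted p = 0.179). In the list of cAMP and RGS genes, 1 of 27 tested members passed.

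VEGFA, the growth factor of blood vessels, was the hypoxia gene that passed. It had 34.4, 30.4, 39.0 and 34.5 CPM in controls and 24.5, 22.6, 23.3 and 24.5 CPM in exposed cells. The groups were apart, and VEGFA fell by 0.55 ± 0.08 (edgeR adjusted p = 0.000647). The median over 36 tested genes of glycolysis and hypoxia was −0.06. Of these genes, 7 had an unadjusted p under 0.05, all lower (background 4.33% of all genes for lower). They included the glucose transporter SLC2A3 (−0.41 ± 0.10), the regulator of glycolysis PFKFB3 (−0.33 ± 0.08), hexokinase HK2 (−0.39 ± 0.10) and DDIT4, an inhibitor of mTORC1 (−0.58 ± 0.14), with edgeR adjusted p between 0.103 and 0.166. GAPDH (−0.06) and LDHA (−0.10) were close to the median of all genes. By library, the median of the list overlapped, at −0.078 to 0.085 in controls and −0.074 to −0.049 in exposed cells. Control replicate 2 lay below every exposed library. KRT17, a keratin of stressed and basal epithelia (chromosome 17, 41619442 to 41624575, minus strand), had 775, 809, 866 and 793 CPM in controls and 527, 554, 461 and 488 CPM in exposed cells. The lowest control was far above the highest exposed library, and KRT17 fell by 0.68 ± 0.08 (edgeR adjusted p = 0.000338). It was the only one of 12 tested keratins that passed, with KRT18 at 0.02 ± 0.06 and KRT8 at −0.05. Reads of KRT17 and its close copies may be shared between them.

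Among the 11 genes that were higher, LENG8, a gene of the leukocyte receptor cluster whose product belongs to an RNA export complex, had 172, 149, 137 and 145 CPM in controls and 238, 229, 217 and 236 CPM in exposed cells. Every exposed library lay well above the highest control. LENG8 rose by 0.61 ± 0.08 on the log2 scale (edgeR adjusted p = 0.000597). ATG16L2, a relative of the autophagy protein ATG16L1, rose by 0.49 ± 0.08 (edgeR adjusted p = 0.00339), from 21.8 to 25.5 CPM to 30.9 to 34.7 CPM. ADAM33, a membrane-bound metalloprotease, rose by 0.49 ± 0.08 (edgeR adjusted p = 0.0104), from 31.1, 30.7, 24.8 and 30.8 CPM to 41.6, 41.7, 40.6 and 41.4 CPM. The exposed libraries of ADAM33 were almost level, and control replicate 3 was the low one among controls. EME2, a subunit of a DNA endonuclease, rose by 0.48 ± 0.10 (edgeR adjusted p = 0.0308), WDR90, a protein of the centriole, by 0.36 ± 0.07 (edgeR adjusted p = 0.0308), and ADARB1, an RNA editing enzyme, by 0.36 ± 0.07 (edgeR adjusted p = 0.0259). PGGHG, a glucosidase of glycosylated hydroxylysine, rose by 0.34 ± 0.05 (edgeR adjusted p = 0.00223) and ENGASE, which removes N-glycans, by 0.35 ± 0.06 (edgeR adjusted p = 0.0175). The cyclin CCNL2, which takes part in splicing, rose by 0.30 ± 0.06, NRBP2, a pseudokinase, by 0.28 ± 0.06, and CDK5RAP3, an adaptor of protein UFMylation, by 0.21 ± 0.04, with edgeR adjusted p of 0.0193, 0.0425 and 0.0295. None of these 11 genes belonged to a gene list. EME2 overlaps MRPS34 and SPSB3 on the opposite strand, and LENG8, ATG16L2 and MAFF also overlap genes on the opposite strand.

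Of the 11 genes that the study names for 12 weeks, a list chosen on these samples and so no independent evidence, 4 fell (TIPARP, CYP1B1, KRT17 and F2RL3) and 0 rose. The others did not pass in this test of 1 µM PFOS against control. The study names F2RL3 and CYP1A1 as DEGs shared between concentrations. It names the rest for a trend across all concentrations, with a low modelled dose relative to human exposure. That is a different test, so a gene that did not pass here does not contradict the study. SFRP1, an inhibitor of WNT ligands, had 11 to 12 counts in controls and 4 to 10 in exposed cells (−0.65 ± 0.31, edgeR adjusted p = 0.567). ASPG, an asparaginase, had 6 to 15 and 11 to 31 counts (0.92 ± 0.34, edgeR adjusted p = 0.399), and TTPA, the tocopherol transfer protein, 2 to 9 and 6 to 13 counts (0.84 ± 0.38, edgeR adjusted p = 0.548). KLHL3, a ubiquitin ligase adaptor, had 23 to 31 and 33 to 49 counts (0.60 ± 0.18, edgeR adjusted p = 0.259), and the uncharacterized LOC124907854 had 14 to 19 and 26 to 39 counts (0.80 ± 0.23, edgeR adjusted p = 0.197). The ranges of KLHL3, LOC124907854 and SFRP1 were apart and those of ASPG and TTPA overlapped. The remaining 2 of the 11 were CYP1A1 and NR4A3, given above.

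Among abundant genes, the 10 largest non-overlapping differences with an unadjusted p under 0.05 and a mean of at least 50 counts included those of NR4A3, RPL36A-HNRNPH2, TIPARP, MAFF, RGS2, CYP1B1, KRT17, FAM156B and IER3. Of these named genes only FAM156B was higher (0.66 ± 0.17, edgeR adjusted p = 0.167). It has a near-identical copy, FAM156A, so its reads are uncertain, as are those of the read-through gene RPL36A-HNRNPH2 (−1.18 ± 0.37, edgeR adjusted p = 0.334).

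Genes of protein synthesis differed by little each but nearly all in one direction. All 78 cytosolic ribosomal protein genes had a log2 fold change below 0, from −0.23 to −0.01, with a median of −0.13. None passed the adjusted p by edgeR, and 16 had an unadjusted p under 0.05 (background 4.33% of all genes for lower). RPL14 had 535 to 558 CPM in controls and 451 to 509 CPM in exposed cells (−0.19 ± 0.06, edgeR adjusted p = 0.298), and RPS27 and RPL27 were at −0.23 and −0.21. Of 47 nuclear genes of the respiratory chain, 43 were below 0, with a median of −0.09. Their median in control replicate 1, −0.094, lay below that of every exposed library (−0.093 to −0.068). By library, the median over the ribosomal genes alone, relative to the mean of the controls, was −0.076, 0.061, −0.033 and 0.047 in control replicates 1 to 4 and −0.17, −0.11, −0.09 and −0.089 in exposed replicates 1 to 4. The controls spread over a range as wide as the difference, though no exposed library reached them. These lists moved with a trend over all genes, since Spearman's rho between the log2 fold change and transcript length was 0.257 and that with GC content 0.209 (12742 genes, 98.8% with a value, description only). In 5 bins of transcript length, the shortest had a median of −0.052 and the longest one of 0.031. With offsets for length and GC content, chosen after this was seen, the ribosomal median was −0.044 with 63 of 78 below 0, and that of the respiratory chain −0.014 with 33 of 47. The part of RNA quality or library preparation in this trend was not tested. The immediate early median was −0.28 and the AHR median −0.14 with the same offsets.

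**Figure D2:**
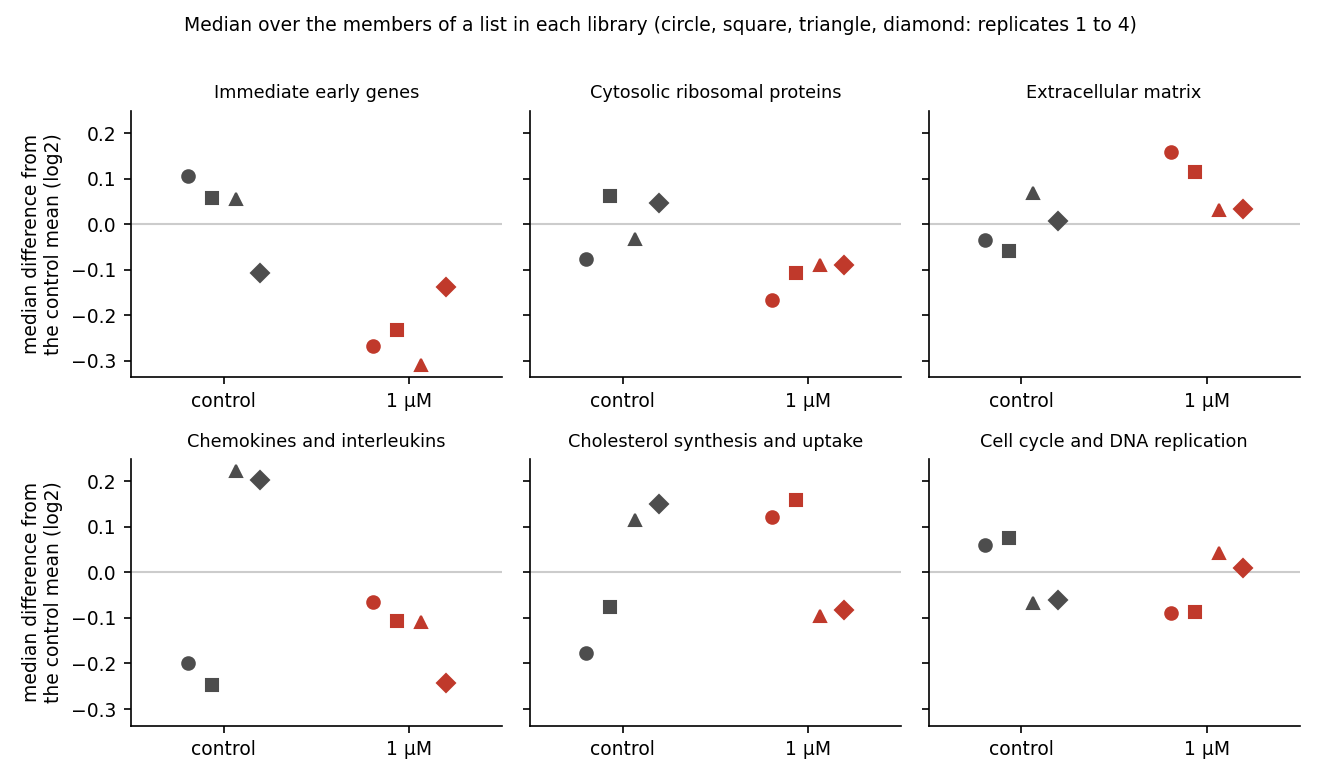
Median over the members of 6 gene lists in each library, as a log2 difference from the mean of the 4 controls (grey, control; red, 1 µM PFOS; shapes, replicates 1 to 4). For immediate early and ribosomal protein genes every exposed library lies below every control, whereas chemokines, cholesterol synthesis and cell cycle split the replicates within the groups.

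Of 37 tested extracellular matrix genes none passed the adjusted p by edgeR, 25 were above 0, and the median was 0.05. An unadjusted p under 0.05 was reached by 5 members, all higher (background 4.42% of all genes for higher). By library, the median was −0.034, −0.058, 0.068 and 0.007 in control replicates 1 to 4 and 0.159, 0.115, 0.032 and 0.034 in exposed replicates 1 to 4, so control replicate 3 lay above exposed replicates 3 and 4. The laminin chain LAMA5 (0.23 ± 0.07), the collagens COL12A1 (0.17 ± 0.05) and COL5A1 (0.17 ± 0.06) and fibronectin FN1 (0.22 ± 0.08) had edgeR adjusted p of 0.26, 0.282, 0.356 and 0.419. These are long transcripts, and the median with the offsets was 0.029. Fatty acid synthesis had 13 tested genes, none of them below 0, with FASN at 0.21 ± 0.08 (edgeR adjusted p = 0.386). Its medians by library overlapped, at −0.084 to 0.044 in controls and 0.020 to 0.163 in exposed cells. Cholesterol synthesis had a median of 0.02 and 1 of 28 genes with an unadjusted p under 0.05, SREBF2, its master regulator (0.11 ± 0.05). With the offsets the medians were 0.038 for fatty acid synthesis and 0.044 for cholesterol synthesis.

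Genes of hormone synthesis did not differ detectably. Of 21 tested steroidogenic genes none passed the adjusted p and none the unadjusted one by edgeR, and the median was at 0. HSD3B1, which makes progesterone, had 5.68 to 13.1 CPM in controls and 7.58 to 11.1 CPM in exposed cells (0.00 ± 0.25). STAR, which brings cholesterol into mitochondria, had 1.99 to 2.68 CPM and 1.26 to 2.91 CPM (−0.17 ± 0.26), and HSD17B1, which forms estradiol, was at −0.09 ± 0.17. Among 21 genes of granulosa identity, AMH, the follicle hormone that marks growing follicles, had 13.7, 12.8, 11.2 and 12.5 CPM in controls and 14.3, 14.3, 17.5 and 16.1 CPM in exposed cells. The groups did not overlap, but the log2 fold change of 0.30 ± 0.09 did not pass (edgeR adjusted p = 0.242). GATA6 was at −0.22 ± 0.07 (edgeR adjusted p = 0.335), and FOXL2, INHA, INHBA and GATA4 were within 0.12 of 0.

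Inflammatory genes varied within the groups more than between them. IL6 had 117 and 99.9 CPM in control replicates 3 and 4 and 65.2 and 51.5 CPM in replicates 1 and 2, but 64.6 and 73.0 CPM in exposed replicates 1 and 2 and 41.6 and 43.7 CPM in replicates 3 and 4. CXCL8 (7.34 to 14.6 CPM and 5.19 to 9.67 CPM), SERPINB2 (12.8 to 39.3 CPM and 8.01 to 18.9 CPM) and CDKN1A, the cell cycle inhibitor p21 (185 to 240 CPM and 147 to 202 CPM), had the same order of replicates, which is that of the first component. Their groups overlapped, and the log2 fold changes were −0.59 ± 0.26, −0.53 ± 0.23, −0.99 ± 0.35 and −0.28 ± 0.11 for IL6, CXCL8, SERPINB2 and CDKN1A, with edgeR adjusted p of 0.552, 0.525, 0.435 and 0.508. Of 16 tested chemokines and interleukins none passed and 3, all lower, had an unadjusted p under 0.05. For this list and those that follow, the background for lower was 4.33% of all genes. Interferon-stimulated genes (29 of 33 below 0, median −0.07), heat shock chaperones (21 of 24 below 0, median −0.08) and metallothioneins and zinc transporters (9 of 9 below 0, median −0.22) also had no member that passed by edgeR, with 4, 4 and 3 at an unadjusted p under 0.05, all lower. With the offsets for length and GC content the medians of the chaperones and the metallothionein list were −0.041 and −0.111. The interferon median was −0.055, with 21 of 33 genes below 0. By library, without the offsets, the interferon medians overlapped, at −0.093 to 0.078 in controls and −0.176 to 0.034 in exposed cells. The metallothionein medians overlapped too, at −0.153 to 0.122 in controls and −0.345 to 0.022 in exposed cells. The chaperone medians did not, at −0.031 to 0.032 and −0.109 to −0.060. The chaperone HSPA8 had 1687 to 1849 CPM in controls and 1469 to 1563 CPM in exposed cells (−0.21 ± 0.07, edgeR adjusted p = 0.349). MT2A, which binds zinc and copper, had 197 to 242 CPM and 163 to 202 CPM (−0.31 ± 0.10, edgeR adjusted p = 0.339). In the stress response list, PPP1R15A and HERPUD1 fell, 8 of 42 genes had an unadjusted p under 0.05, and the chaperone HSPA5 was at 0.00. Cell cycle and replication genes had a median of −0.04, and 1 of 56, PCNA, had an unadjusted p under 0.05 (−0.10 ± 0.05). The median with the offsets was −0.021.

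Whether the effect of 1 µM PFOS differed between 12 and 6 weeks was tested as an interaction over all 32 libraries. The controls of the 2 times are separate libraries from the same vials. The effect differed in 16 of 12988 genes (0.123%, edgeR adjusted p at or under 0.05), 9 of which were more negative and 7 more positive at 12 weeks, and in 26 genes with the replicate block. Of the 28 genes that passed at 12 weeks, 6 were among them: MAFF, TIPARP, AVPI1, LENG8, EME2 and ADARB1. MAFF had 119 ± 11.0 CPM in controls and 109 ± 4.03 CPM in exposed cells at 6 weeks (SD, n = 4), a log2 fold change of −0.12, and the difference of the effects was −0.64 ± 0.10 (edgeR adjusted p = 0.00226). TIPARP had 139 ± 13.7 and 115 ± 7.02 CPM at 6 weeks, and its effect was more negative by 0.68 ± 0.14 at 12 weeks (edgeR adjusted p = 0.0309). LENG8 had 260 ± 16.6 and 276 ± 9.10 CPM at 6 weeks, and its effect was more positive by 0.52 ± 0.10 at 12 weeks (edgeR adjusted p = 0.0249). The levels of the controls also differed between the times. LENG8 had a mean of 151 CPM in controls at 12 weeks, below both groups of 6 weeks, and KRT17 had 384 ± 21.6 CPM in controls at 6 weeks and 811 ± 39.4 CPM at 12 weeks.

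**Figure D3:**
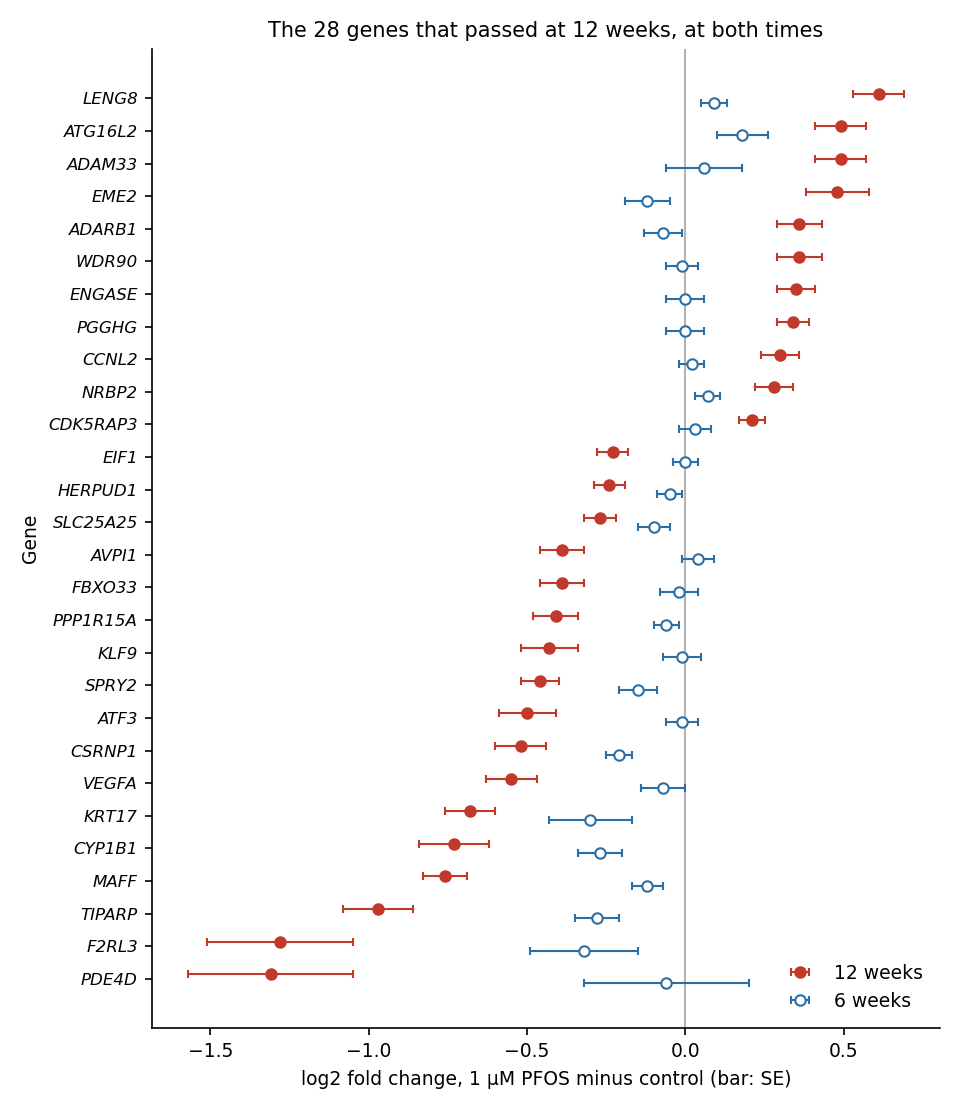
Log2 fold change of 1 µM PFOS against control (horizontal axis; bars, SE) of the 28 genes that passed at 12 weeks (filled red) and of the same genes at 6 weeks (open blue). All 28 lie closer to 0 at 6 weeks, and LENG8, ATG16L2 and CSRNP1 are among those on the same side at both times.

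At 6 weeks, 22 of the 28 genes had the same sign as at 12 weeks, where 48.4% of all 12645 genes tested at both times did, and all 28 were closer to 0. Their median absolute log2 fold change was 0.45 at 12 weeks, on which they had been chosen, and 0.07 at 6 weeks. Over all 12645 genes, the log2 fold changes of the 2 times had a Pearson r of −0.014 and a Spearman rho of −0.024 (across genes, description only). The immediate early list had a median of 0.013 at 6 weeks, and 14 of 30 tested members were below 0. The ribosomal median was 0.052 at 6 weeks, with 8 of 78 genes below 0, and the AHR median −0.17 with 10 of 14. The trends over all genes also differed between the times. Spearman's rho of the log2 fold change with transcript length was −0.001 at 6 weeks and 0.257 at 12 weeks. With GC content it was −0.224 and 0.209 (description only). The part of these trends in the differences between times was not tested. For CYP1B1 and KRT17 the 6-week log2 fold changes were −0.27 and −0.30, and the difference of the effects did not pass (edgeR adjusted p = 0.184 and 0.355).

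The other exposures at 12 weeks used the same controls, so their values are given side by side with no test of likeness. TIPARP had a log2 fold change of −0.30, −0.88 and −0.97 at 0.01, 0.1 and 1 µM PFOS, CYP1B1 of −0.36, −0.67 and −0.73, and MAFF of −0.30, −0.56 and −0.76. F2RL3 was at −0.81, −1.56 and −1.28, ATF3 at −0.30, −0.80 and −0.50, and PDE4D at −0.05, −0.71 and −1.31. LENG8 was at 0.15, 0.59 and 0.61 and ADAM33 at 0.14, 0.45 and 0.49. At 0.01 µM no gene passed against control (smallest edgeR adjusted p 0.472), so none of the values at 0.01 µM is a call. Of the 28 genes that passed at 1 µM, 23 also passed at 0.1 µM against the same controls. In a direct test of 1 against 0.1 µM, which leaves the controls out of the contrast, 0 of 12742 genes passed by edgeR (0%, smallest adjusted p 0.622), 984 had an unadjusted p under 0.05, and 1 gene, FOSB, passed with the replicate block. This does not show that the 2 concentrations acted alike.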

How the data were processed

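HGrC1 cells were sequenced in 32 libraries of 8 groups (n = 4). Reads were filtered and aligned to GRCh38.p14, and the authors deposited RSEM's expected counts for each gene, not normalized (47137 entries, 18583 with values, 92.3% of values whole). TPM values, deposited by the authors, served only for levels between genes. FPKM, normalized values and the authors' own comparisons were not used. The submitters' processing notes name HISAT2 2.0.4, Bowtie2 2.2.5 and RSEM 1.2.8. All value columns were mapped to samples by library name (0 unmapped).

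Expected counts were rounded and tested with edgeR 4.0.16 (R 4.3.3, limma 3.58.1; TMM, filterByExpr, robust quasi-likelihood fit, two-sided, Benjamini-Hochberg adjustment) over the 16 libraries of 12 weeks. A DEG had an adjusted p at or under 0.05 and at least a 2-fold change. CPM used TMM factors of all 32 libraries. Summed counts were compared by exact two-sided permutation of 4 against 4 (smallest p 0.0286). P-values measure the spread between libraries of 1 line, in which vial, flask and preparation cannot be told apart. On simulated counts of 12682 genes for this comparison, 45 of 50 genes changed 1.5-fold and 50 of 50 changed 2-fold were recovered, with 11 false calls. Recovery was not broken down by count level, so it gives no rate for genes with few counts such as PDE4D, F2RL3 and CYP1A1. Its dependence on the split between replicates was not tested. In the real libraries CYP1A1 and NR4A3, with log2 fold changes of −2.00 and −1.39, did not pass. For a count of 0 the upper limit is 3 counts.

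Named were genes past the adjusted p, genes the study names, up to 4 members of each of 43 lists with the lowest p, and the 10 largest changes, with a few relatives added as values. Some genes that this rule names are not reported here. Members and lists were chosen with earlier results of these data known. Alternatives covered DESeq2 1.42.0, scaling, filters, single libraries and the replicate number as a replicate block. The labels call the flasks grown from the vials biological replicates, divide each among the groups and number the libraries by biological replicate, but do not state that a number marks 1 vial. The correlation of same-numbered libraries was −0.0561, −0.0854, −0.133 and −0.1 for numbers 1 to 4. Transcript length and GC content came from GENCODE 44, and promoter sequences from RefSeq. Motifs and tables were handled in Python 3.11.15 (numpy 2.4.6, pandas 2.3.3, scipy 1.17.1).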

Additional observations from a re-analysis of the deposited data

Results flagged for a closer look

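In some groups of 4, 1 library stood apart by Dixon's criterion at the 95% level, which chance alone meets in about 1 of 20 groups. The gap as a share of the range was 0.938 for SLC25A25, 0.929 for ADAM33, 0.895 for WDR90 and 0.86 for SFRP1 in the controls, and 0.869 for AVPI1 and 0.85 for ADARB1 in the exposed libraries, among 82 groups examined. These libraries were control replicate 2 for SLC25A25 (74.1 CPM), control replicate 3 for ADAM33 (24.8 CPM) and WDR90 (41.2 CPM), control replicate 1 for SFRP1 (0.61 CPM), exposed replicate 2 for AVPI1 (47.5 CPM) and exposed replicate 3 for ADARB1 (71.6 CPM). For the summed counts of 6 liver transcripts in the controls it was 0.959, set by control replicate 3 with 919 counts. The controls of SFRP1 held nearly the same few counts, given above, so its gap is small in counts.

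The effect of 1 µM PFOS differed between 12 and 6 weeks in 16 genes. The differences (12 minus 6 weeks, log2, edgeR adjusted p at or under 0.05) were negative for PHLDA1 (−0.77), TIPARP (−0.68), MAFF (−0.64), DDIT3, a stress-induced transcription factor (−0.57), CHMP1B, an ESCRT protein (−0.52), AVPI1 (−0.43), CITED2, a coregulator of CBP (−0.36), ERRFI1 (−0.35) and KLF6, a Krüppel-like factor (−0.34). They were positive for TTLL3, a tubulin glycine ligase (0.75), EME2 (0.60), LENG8 (0.52), ACAP3, a GTPase activator of ARF6 (0.50), TEPSIN, an accessory protein of the AP-4 coat (0.50), ADARB1 (0.43) and INTS3, an Integrator subunit (0.30). At 6 weeks the effects of these 16 genes lay between −0.28 and 0.35.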

How the results depend on the processing

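No value of 40 named genes reversed in 666 comparisons with alternatives: 554 kept direction and side of the threshold, 91 no longer passed and 21 newly passed. In every alternative run, 10 genes passed: SPRY2, LENG8, MAFF, TIPARP, KRT17, CSRNP1, VEGFA, PGGHG, ADAM33 and ATG16L2. The 28 genes became 45 with only the 8 libraries, 136 with all 32, 45 with the replicate block, 88 with DESeq2 on 16 and 163 with DESeq2 on 8 libraries. The 2 DEGs became 5 with all 32 libraries, 4 with the replicate block and 1 (NR4A3) with DESeq2 on 8 libraries. Leaving out 1 library gave 14 to 56 genes and 0 to 3 DEGs: without control replicate 1 there were 56 genes and 1 DEG, without control replicate 3 14 and 0, without exposed replicates 1, 2 and 3 18, 16 and 16 genes with 1, 0 and 1 DEGs. The difference between times gave 26 genes and the test of 1 against 0.1 µM 1 gene with the replicate block. Offsets for length and GC content, added after seeing the data, left 34 genes and 2 DEGs, of which 23 were among the 28. The cause of these shifts was not tested. PDE4D and, in exposed cells, F2RL3 had under 50 counts per library, and the part of depth in their calls was not tested.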

Other observations

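Transcription factors and receptors outside the lists above differed little. In the list of nuclear receptors, 28 genes were tested and none passed by edgeR. An unadjusted p under 0.05 was reached by 3 lower and 1 higher members (background 4.33% and 4.42% of all genes). Among them were the clock repressors NR1D2 (−0.23 ± 0.07) and NR1D1 (−0.24 ± 0.10), with edgeR adjusted p of 0.26 and 0.522. Of 32 genes of the activin, BMP and TGF-beta response none passed, with SMAD7, an inhibitor of the pathway, at −0.27 ± 0.08 and ID3, a BMP target, at 0.26 ± 0.11 (edgeR adjusted p = 0.288 and 0.52). Of 27 YAP and TEAD targets none passed, and NUAK2, a kinase and target of YAP, had 23.8 to 30.8 CPM in controls and 31.9 to 39.7 CPM in exposed cells, without overlap (0.36 ± 0.09, edgeR adjusted p = 0.118). ADAMTS1, a protease of the ovulating follicle, had 312 to 342 CPM and 288 to 299 CPM, also without overlap (−0.17 ± 0.05, edgeR adjusted p = 0.167).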
